A study of Mus musculus with 8 samples.

Results

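Kinesins are motor proteins that use ATP to move along microtubules or to take them apart. The kinesin genes were followed in dermal fibroblasts from newborn C57BL/6 mice, comparing motors of the mitotic spindle with motors that carry cargo in the cytoplasm. A gene was a member when its mouse symbol was Kif followed by a number and at most 1 letter and 1 further number, with 1 gene excepted. This rule found 35 of the 21368 genes with a symbol on the array. The rule itself used no measured value, but members and lists were chosen with earlier results of these data known. Of these 35 genes, 8 formed the mitotic group (Kif11, Kif15, Kif18a, Kif18b, Kif20a, Kif23, Kif2c and Kif4) and 8 the cargo group (Kif1a, Kif1b, Kif1c, Kif5a, Kif5b, Kif5c, Kif21a and Kif21b). The other members were sorted by textbook role into division (5 genes), cilium (8), other cargo (4) and poorly known (2).

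Cells were freed from skin with dispase and collagenase type 1, grown in DMEM with 10% fetal calf serum and transfected with control oligonucleotides (4 samples, numbered 1, 3, 6 and 8) or with a miR-127-3p mimic (4 samples, numbered 2, 4, 5 and 7). MiR-127-3p is a microRNA, a short RNA that lowers messengers carrying a match to its seed, and a mimic is a synthetic copy of it. The series title sets the work in the context of senescence of myofibroblasts, the contractile form of fibroblast, and of the imprinted Dlk1-Dio3 domain that holds the microRNA's gene. For control samples 3 and 6 the treatment field names both kinds of oligonucleotide, and their titles and source names say control. The labels give neither the dose nor the time after transfection, and they do not say whether the samples of a group came from separate animals or cultures, so the p-values measure only the spread between these samples, which may be technical. The mature microRNA of the mimic is printed here with its seed, bases 2 to 8, in capitals. It comes from RefSeq on GRCm38.p6, chr12:109592888-109592909, plus strand.
mmu-miR-127-3p: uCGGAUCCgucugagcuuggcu

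Mitotic kinesins push the spindle poles apart, move chromosomes, shorten microtubules and build the midzone, the bundle of overlapping microtubules between the separating chromosomes at which the cell divides. Most of them are made mainly in the later part of the cell cycle, so that in bulk RNA their level can follow the share of dividing cells. Cargo kinesins work in dividing and resting cells alike and carry vesicles, mitochondria and protein complexes outward along microtubules; Kif1a, Kif5a and Kif5c are best known from neurons, Kif5b from nearly all cells. In RNA from a whole culture, fewer cells of a type and less RNA per cell cannot be told apart.

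Each sample was hybridised in 1 colour to its own array of an Agilent 60-base oligonucleotide design. Between 20756 and 23472 probes were well above background per array, and no spot was saturated. The level of a gene is given as the log2 processed signal of its brightest probe minus the 75th percentile of that array, so a level of 0 lies at the 75th percentile. Levels of different genes come from different probes and were not set against each other. The marker lists are an exception: there the linear levels were summed, so bright probes weigh most. Genes well above background on at least 4 of 8 arrays were tested, and a gene was called lower or higher where limma's adjusted p was under 0.05 over 17093 features. The 10 fibroblast markers, among them Col1a1, Col1a2, Pdgfrb, Thy1 and Vim, were well above background on all 8 arrays. The log2 of their summed linear levels ranged from 10.65 to 10.88 in control and from 10.80 to 10.94 with the mimic. The fibroblast marker Pdgfra was lower with the mimic (log2 fold change -0.97, SE 0.21, adjusted p = 0.0087) and Dcn was higher (1.18, SE 0.36, adjusted p = 0.0324).

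With the mimic, the kinesins of the spindle fell together and a few of the cargo motors rose. Of 35 genes, 28 were tested: 14 of 28 were lower (against 18.3% of all features), 4 were higher (14.3%, against 15.9%) and 10 were not called. In either direction 64.3% were called, against 34.2% of all features. The arrays of the 2 groups did not overlap for 17 of the 28 genes (60.7%, against 34.2% of all features). All features include probes without a gene symbol. Of the 12031 features with a symbol, 2422 were lower, 2193 were higher and 4617 had no overlap between the groups. All 8 mitotic kinesins were lower, with a median log2 fold change of -2.09, while the 8 cargo motors had a median of 0.29 with 4 higher and 1 lower. The median over all features was 0.02.

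**Figure D1:**
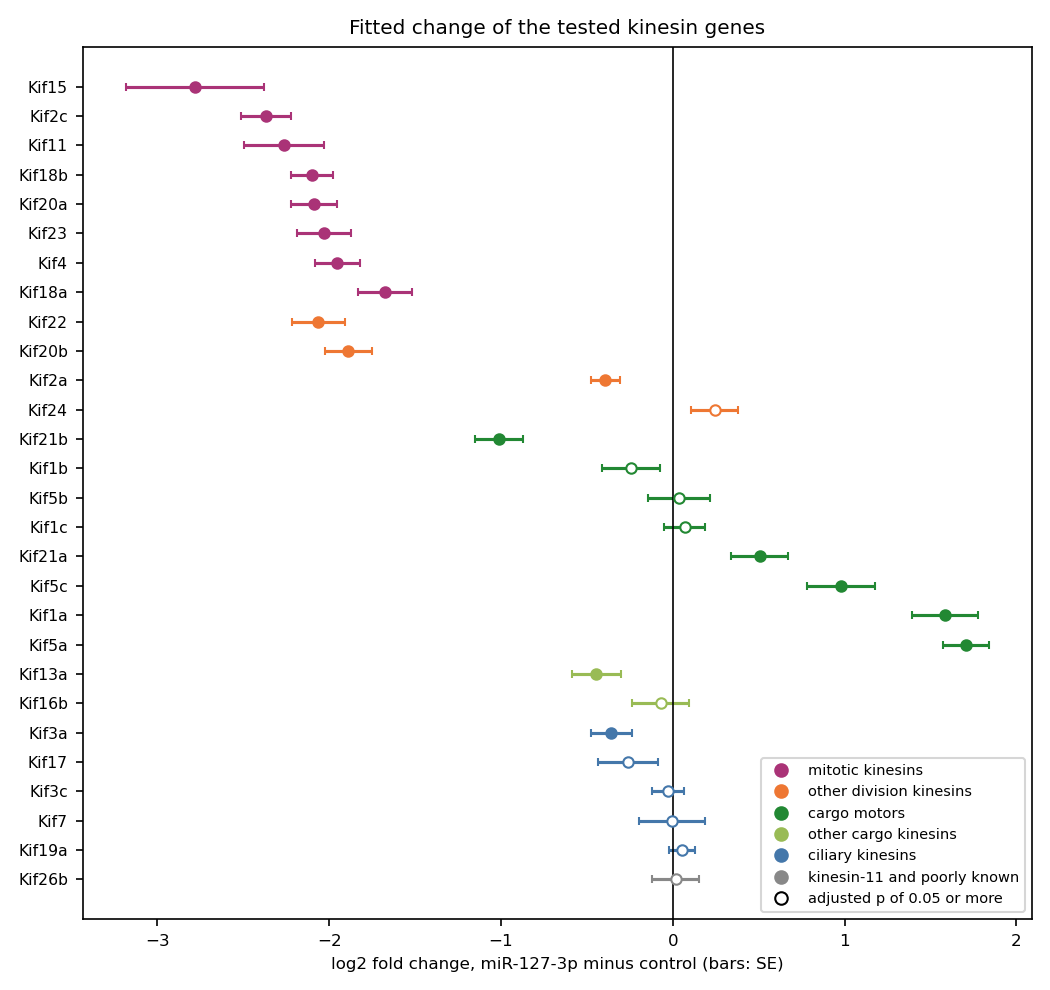
Log2 fold change (miR-127-3p minus control) of the 28 tested kinesin genes, by role; points are the fitted values, bars the standard error, filled points passed the threshold and open points did not. The 8 mitotic kinesins lie between -2.78 and -1.67, and the cargo motors spread from -1.01 to 1.71.

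Genes of late cell cycle phases often carry a CHR element (TTTGAA or TTCGAA) near the start site, frequently with CCAAT boxes before it. The promoters of the kinesins were searched for these letters. The RefSeq table on GRCm38.p6 held promoters of 29 of the 35 genes, each from 250 bases before to 50 after the start, and both strands were searched; each motif was searched on its own, so matches of both that overlap count for both. A CHR match stood in 6 of 7 mitotic kinesins with a promoter (85.7%), in 1 of 5 cargo motors (20%) and in 21.7% of all 27025 genes of the table. Of the 6 mitotic genes with a match, 5 had it within 30 bases of the start. Kif20b, Kif22, Kif24 and Kif26b, outside the mitotic group, also had a match that near. The share of all genes with a match that near was not computed. CCAAT stood in 4 of 7 mitotic kinesins (57.1%), in 1 of 5 cargo motors and in 41.1% of all genes. Both motifs stood in 4 of 7 mitotic kinesins, in 0 of 5 cargo motors and in 8.61% of all genes. The cargo motor with a CHR match was Kif1a, which rose; the match stands at position -44 of 1 of its 2 promoters. Of the 12 lower kinesins with a promoter, 8 held a CHR match, and Kif18a, Kif2a, Kif13a and Kif3a did not. Of the 8 tested but uncalled kinesins with a promoter, 2 held a CHR match, Kif24 and Kif26b, and both also held CCAAT. A match is a description of letters and not evidence of binding.

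The last 120 bases before the start are printed for 5 genes, 5′ to 3′ on the gene's own strand, with matches on either strand in capitals: ATTGG is CCAAT and TTCAAA is TTTGAA on the other strand. Kif11 and Kif15 are mitotic kinesins with a CHR match at position -19, with and without CCAAT. Of the other mitotic kinesins with a promoter, Kif18b, Kif23 and Kif4 had the match after the start, Kif2c at -103 and Kif18a had none. Kif22 is a division kinesin outside the mitotic group that also fell. Kif24 holds the letters and was not called, and Kif5c is a cargo motor with no match that rose. The windows are chr19:37376262-37376381 (plus strand) for Kif11, chr9:122950961-122951080 (plus) for Kif15, chr7:127042421-127042540 (minus) for Kif22, chr4:41464849-41464968 (minus) for Kif24 and chr2:49619166-49619285 (plus) for Kif5c.
Kif11: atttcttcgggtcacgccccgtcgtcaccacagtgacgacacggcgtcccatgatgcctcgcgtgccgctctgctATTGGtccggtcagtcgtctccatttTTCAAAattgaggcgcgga
Kif15: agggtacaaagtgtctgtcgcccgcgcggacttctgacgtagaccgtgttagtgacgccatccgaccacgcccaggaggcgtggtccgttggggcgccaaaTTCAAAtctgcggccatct
Kif22: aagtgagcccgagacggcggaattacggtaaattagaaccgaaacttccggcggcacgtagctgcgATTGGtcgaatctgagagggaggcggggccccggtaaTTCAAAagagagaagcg
Kif24: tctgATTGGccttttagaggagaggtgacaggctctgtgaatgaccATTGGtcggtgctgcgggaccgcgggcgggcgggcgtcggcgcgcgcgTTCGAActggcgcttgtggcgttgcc
Kif5c: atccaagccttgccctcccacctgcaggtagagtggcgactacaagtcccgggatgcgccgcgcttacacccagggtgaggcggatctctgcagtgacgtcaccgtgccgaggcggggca

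Both motors of the group that separate the spindle poles fell. Kif11, the bipolar motor that slides spindle microtubules apart, had log2 levels of 0.68, 0.48, 0.69 and 0.61 in control samples 1, 3, 6 and 8, and of -1.03, -1.59, -1.64 and -2.31 in mimic samples 2, 4, 5 and 7. Every mimic sample lay below every control sample, and the fitted log2 fold change was -2.26 (SE 0.23, adjusted p = 0.000199). Kif15, a motor that can help to keep the spindle bipolar, had levels of -0.63, -0.79, -0.65 and -0.50 in control and of -2.67, -4.38, -2.56 and -4.08 with the mimic, in the same sample order. Kif15 was low in all mimic samples, lowest in samples 4 and 7, and its log2 fold change was -2.78 (SE 0.40, adjusted p = 0.00121), a fitted level of 14.6% of control. Its probe was well above background in 1 of 4 mimic samples, and that of Kif11 in 3 of 4. Background was instead removed by normexp, which models it, here with an offset of 50 added to every signal. Kif11 then had -1.46 and Kif15 had -1.10, and both stayed past the threshold.

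Kinesins that shorten microtubules or hold their length in check fell as well. Kif2c, a depolymerase that corrects faulty attachments at the centromere, had log2 levels of 0.81, 0.72, 0.92 and 0.75 in control and of -1.24, -1.78, -1.39 and -1.87 with the mimic. The groups did not overlap, and the log2 fold change was -2.37 (SE 0.15, adjusted p = 1.97e-05). Kif18a, which dampens chromosome movements at metaphase, had levels of -0.58, -0.70, -0.57 and -0.49 in control and of -1.97, -2.63, -1.98 and -2.46 with the mimic. Its log2 fold change of -1.67 (SE 0.16, adjusted p = 0.000134) was the one nearest to 0 in the mitotic group, and its probe was well above background in 2 of 4 mimic samples. Kif18b, which acts on astral microtubules, had levels of 0.50, 0.25, 0.20 and 0.60 in control and of -1.53, -1.65, -1.77 and -1.89 with the mimic. Its 4 mimic samples lay within 0.35 of each other, and its adjusted p of 1.52e-05 (log2 fold change -2.10, SE 0.12) was the smallest among the 28 kinesins. Normexp gave -1.55 for Kif2c, -0.69 for Kif18a and -1.33 for Kif18b. Kif18a fell without a match to either promoter motif in its window.

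The kinesins of the midzone and of cytokinesis fell too, with log2 fold changes from -2.09 to -1.95. Kif20a, which brings the chromosomal passenger complex to the midzone, had log2 levels of 4.28, 4.19, 4.25 and 4.19 in control and of 2.24, 1.97, 2.48 and 1.87 with the mimic. Its signal was above background on all arrays, its control samples lay within 0.09 of each other, and its log2 fold change was -2.09 (SE 0.13, adjusted p = 2.31e-05), or 23.6% of control. Kif23, the motor subunit of centralspindlin, had levels of 1.25, 0.97, 1.17 and 1.15 in control and of -0.74, -1.25, -0.52 and -1.06 with the mimic. No mimic sample of Kif23 reached the control range, and the log2 fold change was -2.03 (SE 0.16, adjusted p = 5.38e-05). Kif4, a chromosome-bound motor that also limits midzone length, had levels of 1.32, 1.16, 1.04 and 1.14 in control and of -0.50, -0.83, -0.73 and -1.10 with the mimic. Its log2 fold change was -1.95 (SE 0.13, adjusted p = 2.8e-05), again with no overlap. The normexp correction left Kif20a at -1.96 and brought Kif23 to -1.44 and Kif4 to -1.28.

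Across the group of 8, the fitted level with the mimic was between 14.6% and 31.3% of control, and the gap between the lowest control and the highest mimic sample was at least 1.27 on the log2 scale. Of the 8 probes, 5 were well above background on all 8 arrays. All 8 genes were called lower with normexp too, but their range moved to between -1.96 and -0.69, with a median of -1.38. The size of the fall of the dimmer genes therefore depended on the setting, while the direction did not. The normexp setting differs in its background model and in its offset of 50, and the part of each was not tested.

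**Figure D2:**
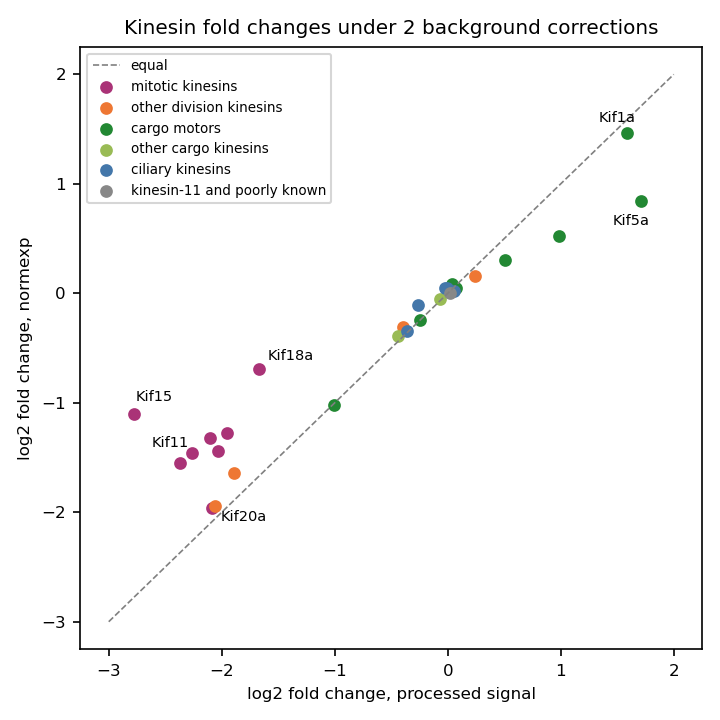
Log2 fold change of the 28 tested kinesins from the processed signal (x axis) against that after normexp background correction (y axis), coloured by role; the dashed line marks equal values. Kif20a, Kif22 and Kif1a lie near the line, whereas Kif15, Kif18a and Kif5a have a fold change nearer to 0 with normexp.

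Outside the mitotic group, 4 of the 5 kinesins with a role in division were tested, and 3 were lower (against 18.3% of all features). Kif22, a chromosome-arm motor, had log2 levels of 3.82, 3.45, 3.58 and 3.80 in control and of 1.97, 1.52, 1.61 and 1.29 with the mimic. The groups lay well apart and the log2 fold change was -2.06 (SE 0.15, adjusted p = 4.18e-05). Kif20b, which acts late in cytokinesis, had levels of 2.42, 2.07, 2.31 and 2.43 in control and of 0.71, 0.27, 0.51 and 0.19 with the mimic, again with no overlap, and its log2 fold change was -1.89 (SE 0.14, adjusted p = 3.96e-05). Kif2a, a depolymerase that works at spindle poles and also in interphase cells and neurons, had a fold change nearer to 0. Its levels were 1.64, 1.47, 1.43 and 1.49 in control and 1.17, 1.04, 1.24 and 1.01 with the mimic, all mimic samples being below all control samples. The fit gave -0.39 on the log2 scale (SE 0.09, adjusted p = 0.00916). Kif24, a depolymerase of the centriole that restrains cilium formation, was not called. Its levels were 0.00, 0.16, -0.03 and 0.09 in control and -0.01, 0.48, 0.58 and 0.15 with the mimic, with overlap between the groups and a log2 fold change of 0.24 (95% confidence interval -0.07 to 0.56, adjusted p = 0.201). Kif24 was thus not called lower although it holds a CHR match 26 bases before its start and 4 CCAAT matches, as printed in part above. The probes of Kif22 and Kif4 were not checked against pseudogene copies of these genes.

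Among the cargo motors, Kif5a, Kif1a, Kif5c and Kif21a were higher with the mimic and Kif21b was lower. Kif5a, a kinesin-1 heavy chain known mainly from neurons, had log2 levels of -2.39, -2.13, -2.51 and -2.12 in control and of -0.29, -0.62, -0.65 and -0.76 with the mimic. All mimic samples lay above all control samples, and the log2 fold change was 1.71 (SE 0.13, adjusted p = 5.36e-05), or 3.26-fold. A second Kif5a probe was well above background on no array and was not tested, so this value rests on 1 probe. Kif5c, the other kinesin-1 heavy chain known mainly from neurons, had levels of -1.61, -1.66, -2.33 and -1.35 in control and of -0.96, -0.57, -0.70 and -0.79 with the mimic. The groups did not overlap, sample 6 was the lowest control, and the log2 fold change was 0.98 (SE 0.20, adjusted p = 0.00592), with the probe well above background in 3 of 4 control samples. Kif5b, the kinesin-1 heavy chain of most cell types, had levels of 0.01, -0.29, -0.54 and -0.26 in control and of -0.33, -0.45, 0.26 and -0.42 with the mimic. Its groups overlapped and the log2 fold change was 0.04 (95% confidence interval -0.37 to 0.44, adjusted p = 0.897). Normexp gave 0.84 for Kif5a and 0.52 for Kif5c, both still called. Within a slide row, where each group has 2 arrays, Kif5c was not called (largest adjusted p = 0.125).

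Of the kinesin-3 motors, Kif1a rose and its relatives Kif1b and Kif1c were not called. Kif1a, a carrier of synaptic vesicle precursors and dense-core vesicles, had log2 levels of 2.77, 3.52, 2.72 and 3.28 in control and of 4.93, 4.62, 4.51 and 4.55 with the mimic. Every mimic sample was above every control sample, and the log2 fold change was 1.58 (SE 0.19, adjusted p = 0.000498). A second Kif1a probe gave 1.25 (SE 0.22, adjusted p = 0.0029 in a fit of all probes). Kif1b, a carrier of mitochondria and vesicles, had levels of 2.94, 2.71, 2.50 and 2.60 in control and of 2.38, 2.32, 2.90 and 2.17 with the mimic. Mimic sample 5 stood within the control range and the other mimic samples below it, for a log2 fold change of -0.24 (95% confidence interval -0.62 to 0.14, adjusted p = 0.294). Without mimic sample 5, Kif1b was called lower (-0.40, SE 0.12, adjusted p = 0.0417). Kif1c, a motor of vesicles and integrins, had levels of 3.38, 3.56, 3.23 and 3.24 in control and of 3.32, 3.45, 3.67 and 3.26 with the mimic, with a log2 fold change of 0.07 (95% confidence interval -0.20 to 0.34, adjusted p = 0.686). Its brightest probe did not separate the groups, whereas the dimmest of its 3 probes was called higher (0.49, SE 0.14, adjusted p = 0.0269 in the fit of all probes).

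Of the kinesin-4 pair, Kif21b fell and Kif21a was called higher. Kif21b, a motor that pauses microtubule growth, had log2 levels of 4.53, 3.84, 4.08 and 4.36 in control and of 3.19, 3.21, 3.19 and 3.17 with the mimic. The mimic samples were nearly equal and all lay below control; the fit gave a difference of -1.01 (SE 0.14, adjusted p = 0.00104). Kif21a, which restrains microtubule growth at the cell cortex, had levels of -0.90, -1.08, -1.37 and -0.94 in control and of -0.31, -0.44, -1.01 and -0.51 with the mimic. Its groups overlapped at mimic sample 5, and its log2 fold change was 0.50 (SE 0.17, adjusted p = 0.0476). Normexp gave 0.31. Kif21a fell short of the threshold in 13 of 20 alternative settings. The call of Kif21b was lost only within slide row 1, of the 20 settings tried (adjusted p = 0.078). The difference between the 2 genes was not tested.

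**Figure D3:**
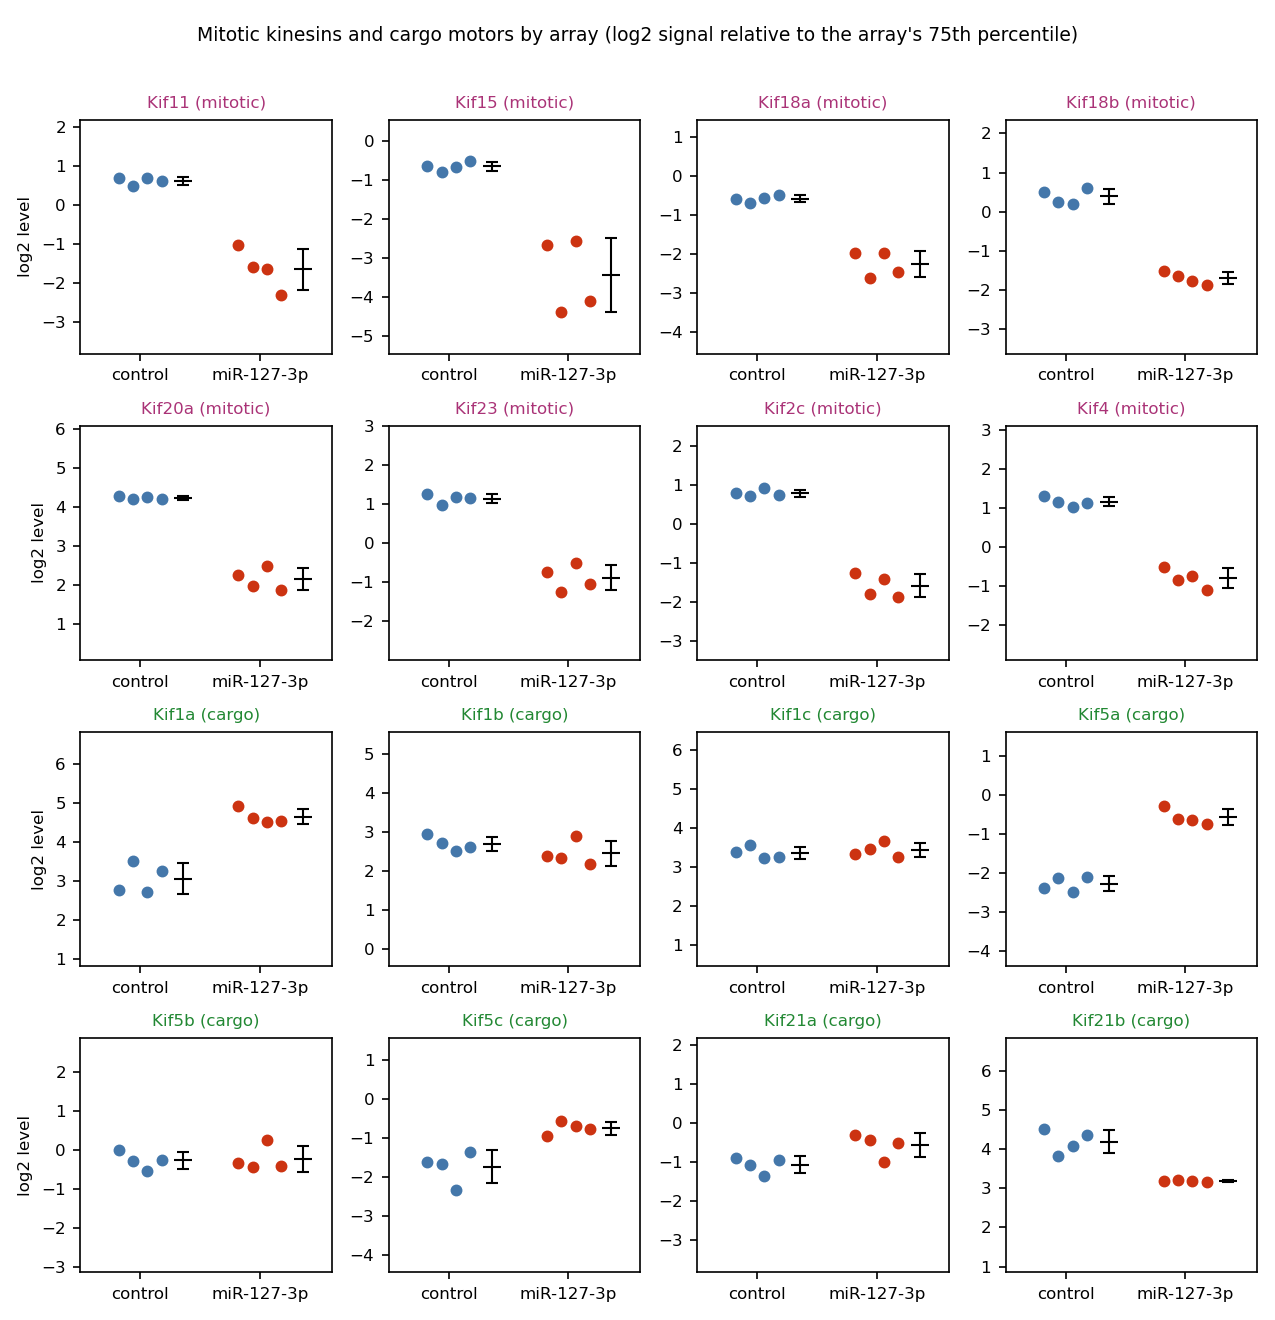
Log2 level (signal relative to the array's 75th percentile) of the 8 mitotic kinesins (upper panels) and 8 cargo motors (lower panels), 1 point per sample, with the mean and SD of each group of 4 beside the points; all panels span the same log2 range. In each mitotic panel the 4 mimic samples lie below the 4 control samples, and in the cargo panels Kif1a, Kif5a and Kif5c lie above, Kif21b lies below and the other 4 overlap.

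Markers of other cell types were read on the same arrays, since some cargo motors are best known from neurons. Of the 5 neuron markers, Rbfox3, Syt1 and Map2 were not well above background on any array, Snap25 was higher with the mimic (log2 fold change 0.52, SE 0.17, adjusted p = 0.0432) and Tubb3 was not called (-0.31, SE 0.30, adjusted p = 0.465). The log2 of the neuron list's summed linear levels ranged from 4.48 to 5.03 in control and from 4.91 to 5.60 with the mimic, and thus overlapped. Of the 10 macrophage and leukocyte markers, 9 were tested and 8 were higher (against 15.9% of all features), with a median log2 fold change of 1.18. Lyz2, lysozyme, rose by 1.79 (SE 0.18) and Csf1r, the receptor of macrophage growth factor, by 1.04 (SE 0.14), while Ptprc, the pan-leukocyte antigen CD45, was not well above background on any array. The log2 of this list's summed linear levels ranged from 5.17 to 5.50 in control and from 6.00 to 6.23 with the mimic, with no overlap. The 5 endothelial markers had no call among 2 tested, and Tek and Tie1 were not well above background on any array. The log2 of the endothelial list's summed linear levels was 3.23 to 3.64 in control and 3.32 to 3.77 with the mimic. The same measure was 2.73 to 3.98 and 3.55 to 4.48 for 7 keratinocyte markers (1 of 3 tested was higher, against the same 15.9%). It was 2.75 to 3.20 and 2.54 to 3.26 for 7 melanocyte and Schwann markers (1 of 5 higher), and -0.71 to 1.13 and -0.90 to 0.35 for 5 muscle markers (0 of 2 called). The part of any of these lists in the kinesin values was not tested.

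The kinesins of the cilium, the antenna-like organelle of resting cells, gave 1 call, a lower one, among 5 tested of 8 genes, a share near the 18.3% of all features. Kif3a, a heavy chain of the kinesin-2 motor that carries material into the cilium, had log2 levels of 2.22, 1.99, 2.04 and 2.06 in control and of 1.58, 1.49, 1.98 and 1.84 with the mimic. All mimic samples lay below control, sample 5 by 0.01, and the log2 fold change was -0.36 (SE 0.12, adjusted p = 0.0492). That call was lost in 14 of 20 alternative settings, and a second Kif3a probe gave -0.07 (SE 0.12, adjusted p = 0.686). The other tested genes were not called: Kif7, which works in Hedgehog signalling at the cilium tip, had a log2 fold change of -0.0044 (95% confidence interval -0.45 to 0.44). Kif19a, which limits cilium length, had 0.05 (-0.12 to 0.23), Kif3c had -0.03 (-0.24 to 0.19) and Kif17, a motor of cilia and dendrites, had -0.26 (-0.66 to 0.13), with the same kind of interval in parentheses. Kif17 was well above background on 5 of 8 arrays.

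Of the other cargo kinesins, Kif13a was lower. Kif13a, a motor of recycling endosomes, had log2 levels of 1.56, 1.15, 1.12 and 1.37 in control and of 1.05, 0.80, 1.01 and 0.57 with the mimic. The groups were separate by 0.07, and the log2 fold change was -0.44 (SE 0.14, adjusted p = 0.0403). Kif13a missed the threshold in 9 of 20 alternative settings. Kif16b, a motor of early endosomes, was not called (-0.07, 95% confidence interval -0.44 to 0.30), nor was Kif26b, a kinesin-11 that lacks ATPase activity (0.02, -0.30 to 0.33). The remaining 7 genes were not tested. Kif13b, Kif27 and Kif6 were well above background on no array, and Kif12, Kif26a, Kif2b and Kif9 on 1 array each.

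Of the 12 kinesins with more than 1 probe, 6 had at least 2 tested probes, and in all 6 the fold changes of these probes had the same sign. Kif2c gave log2 fold changes of -2.37 and -1.97 with its 2 probes. Kif2a gave -0.39 and -0.59, so the milder change of this depolymerase was seen at both of its tested probes. Another Kif2a probe was well above background on 1 array only and was not tested. Kif1b gave -0.24 and -0.06, neither of them called.

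Genes of proteins that work with the mitotic kinesins fell as well. Of 20 spindle and midzone partners, 19 were tested and 18 were lower, against 18.3% of all features, with a median log2 fold change of -1.88. The list was chosen with earlier results of these data known, so its count is a description and not a test. Birc5 and Cdca8, subunits of the chromosomal passenger complex that Kif20a carries, had log2 fold changes of -2.20 (SE 0.11) and -1.87 (SE 0.09). The mitotic kinase Plk1 had -2.15 (SE 0.11) and cyclin B1, Ccnb1, had -2.29 (SE 0.12). Racgap1, the partner of Kif23 in centralspindlin, had -1.88 (SE 0.10) and Prc1, the midzone bundler that works with Kif4, had -1.76 (SE 0.11); these 2 genes were chosen after their values were seen. Numa1, which ties dynein to the spindle poles, was not called (-0.21, SE 0.11, adjusted p = 0.163), and Aurkb was not well above background on any array.

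Among 6 kinesins with symbols of another form, 5 were tested, of which 3 were lower (against 18.3% of all features) and 1 higher (against 15.9%). Cenpe, the motor of the kinetochore, had a log2 fold change of -2.04 (SE 0.11) and Kifc1, the minus-end motor that focuses spindle poles, -1.82 (SE 0.10). Kifc5b had -1.09 (SE 0.30, adjusted p = 0.0229), but it is nearly identical to Kifc1 and their signals may be shared. The Kifc5b probe was well above background in all control samples and in 1 of 4 mimic samples, so the size of its change is uncertain. Kifc2, a motor known from neurons, was higher (0.64, SE 0.19, adjusted p = 0.0307), with its probe well above background in 3 of 4 control samples. Kifc3 was not called (0.10, SE 0.11).

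Of 20 names on a list of light chains and adaptors of the cargo kinesins, 17 genes were tested and 10 were not called. Of these 17, 4 were higher, against 15.9% of all features. The 3 that were lower stand against 18.3% of all features, a share near the list's own. The median log2 fold change was -0.02. Mapk8ip1, a scaffold that binds kinesin-1, was higher (0.77, SE 0.11, adjusted p = 0.0011), as was Zfyve27, protrudin, which binds Kif5 (0.53, SE 0.10, adjusted p = 0.0051). Rhot2, which ties mitochondria to kinesin, was lower (-0.51, SE 0.08, adjusted p = 0.0018), and so was Madd, an adaptor of Kif1a and Kif1b (-0.34, SE 0.09, adjusted p = 0.0185). Of the light chains, Klc3 and Klc4 were higher, at 0.74 and 0.38, while Klc1 (-0.09, adjusted p = 0.642) and Klc2 (-0.20, adjusted p = 0.352) were not called.

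Dynein, the motor that moves the opposite way along microtubules, and its activator dynactin were mostly not called: of 26 tested genes 4 were lower (against 18.3% of all features) and 2 higher (against 15.9%), with a median log2 fold change of 0.08. The genes with the 4 smallest p-values were all lower. Nde1, a dynein regulator with a role in mitosis, had -1.07 (SE 0.11), the centrosomal protein Nin -0.73 (SE 0.09) and the light chain Dynlrb1 -0.38 (SE 0.09). Spdl1, which brings dynein to kinetochores, was at least 1.95-fold lower; no mimic sample was well above background, so this gene passed the filter through its control samples alone.

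Taking the kinesins as groups, each sample's median deviation from the control mean was computed over the tested genes. For the mitotic kinesins it ranged from -0.12 to 0.06 in control and from -2.32 to -1.90 with the mimic, with means of -0.01 ± 0.08 (SD, n = 4) and -2.09 ± 0.22 (SD, n = 4). The cargo motors ranged from -0.24 to 0.15 in control and from 0.23 to 0.42 with the mimic, with means of 0.03 ± 0.19 (SD, n = 4) and 0.35 ± 0.08 (SD, n = 4). The mitotic groups lay far apart, while the cargo groups were separated by 0.08 only. With the 8-array filter, which removes Kif5c, the cargo median was 0.07 in place of 0.29. The ciliary kinesins ranged from -0.09 to 0.14 in control and from -0.19 to 0.06 with the mimic, and thus overlapped. In each of the 8 samples both medians came from the same array, so the difference between them does not change with the scaling of that array.

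**Figure D4:**
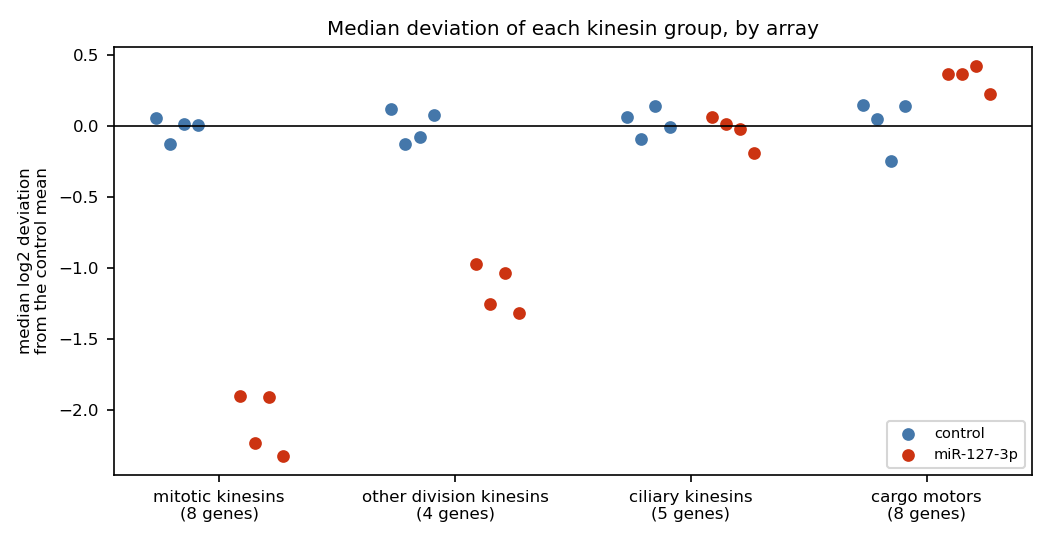
Median deviation of each kinesin group from its control mean (log2), 1 point per sample. The mitotic points of the mimic samples lie between -2.32 and -1.90, the ciliary points of both groups around 0, and the cargo points of the mimic samples between 0.23 and 0.42.

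Set among all features on the processed signal, 1% had a log2 fold change below -1.89 and 5% below -0.88. Of the 8 mitotic kinesins, 7 were below -1.89, and Kif18a at -1.67 was between these limits. At the other end 1% of features lay above 1.71, which is about where Kif5a stood, and 5% above 0.91, which Kif1a and Kif5c passed.

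**Figure D5:**
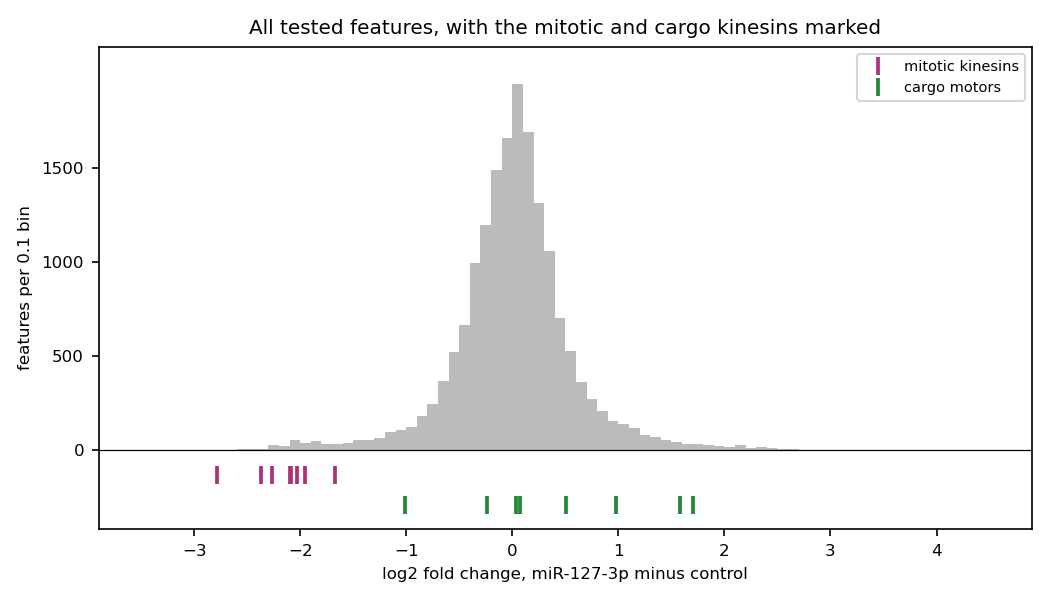
Histogram of the log2 fold change of all 17093 tested features in bins of 0.1, with the 8 mitotic kinesins and the 8 cargo motors marked as ticks under the axis line. The mitotic ticks lie in the low tail, at -2.78 to -1.67, and the cargo ticks cover the centre and the high side, at -1.01 to 1.71.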

How the data were processed

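Agilent Feature Extraction 11.5.1.1 read the spots, and per the file headers its processed intensity has background subtracted and no normalization between arrays. The deposited value table holds log2 values that equal log2 processed intensity minus 1 constant per array, which sets each array's 75th percentile near 0; genes were not centred. Per the series' design text the authors used GeneSpring 14.9.1. Here, control and outlier spots were left out, spots of a probe averaged, log2 processed intensity was scaled to each array's 75th percentile, and groups were compared with limma 3.58.1 (R 4.3.3; lmFit, eBayes, two-sided, Benjamini-Hochberg over 17093 features, brightest probe per gene, well above background on 4 or more of 8 arrays). The number of arrays limits the precision. Of 55681 probes, 28331 matched a RefSeq transcript (GRCm38.p6, names only), because the scanner tables used here carry accessions and no symbols. Normexp (offset 50) ran on median in place of mean signals, which the tables do not carry. Kif14 and Kif28 were not analysed here. The code was tested on simulated data.

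Named were all tested mitotic and cargo genes, every other called kinesin with values per sample, and of each partner list up to 4 genes with the smallest p. Added after their values were seen were Kif24 per sample, the light chains, Kifc3, Racgap1, Prc1, Numa1 and Aurkb. Members and lists were chosen with earlier results of these data known. Alternatives changed background correction, scaling, filter, slide row or column, probe choice, variance prior, value table and each replicate in turn.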

Additional observations from a re-analysis of the deposited data

Results flagged for a closer look

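In the 56 groups of 4 samples formed by the 28 tested kinesins, 2 held a sample far from the other 3, by a gap that took up 0.835 of the group's range in each; chance gives this in about 1 in 20 groups (5%). Kif19a, the kinesin of cilium length, had a log2 level of -0.4642 in control sample 6, and the nearest control sample was at -0.2927. Kif5b, the kinesin-1 heavy chain of most cell types, had a log2 level of 0.2581 in mimic sample 5, and the nearest mimic sample was at -0.3295. Neither gene was called lower or higher.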

How the results depend on the processing

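Over 20 alternative settings, the count of lower kinesins stayed between 10 and 15 and that of higher ones between 2 and 4, and no called gene changed direction. The count of all features called in either direction was 5851 of 17093 in the full fit. It ranged from 1611 of 17093 within slide row 2 to 6025 of 17093 with a trended and robust variance prior. Without the background filter it was 3657 of 36708. Of the 18 called kinesins, 12 kept their call in every setting in which they were tested, and 6 lost it in some: Kif3a in 14, Kif21a in 13, Kif13a in 9, Kif2a in 3, Kif5c in 2 and Kif21b in 1. All tested mitotic kinesins were lower in each setting (8 of 8, and 5 of 5 with the filter on all 8 arrays). With that filter 5565 of 15001 features were called in either direction. With normexp the mitotic median was -1.38. The cargo median was 0.0689 with the filter on all 8 arrays, where Kif5c is not tested. Within slide row 1 and within slide row 2, with 2 arrays a group, 2 kinesins each were higher, with fewer arrays than in the full fit. Of all 17093 features, 1759 and 1611 were called there in either direction. Leaving out 1 sample at a time gave 12 to 15 lower and 3 to 4 higher kinesins, with 4320 to 5789 of all 17093 features called in either direction. Mitotic medians were then -2.18 to -2.02 and cargo medians 0.22 to 0.35. Signs of 6 uncalled kinesins changed in 23 instances. The groups share no replicate numbers, so the labels pair no samples. Each slide column holds 1 control and 1 mimic array. With the column as a block 12 kinesins were lower and 3 higher, Kif13a, Kif21a and Kif3a no longer being called. Of all 17093 features, 4008 were called in that setting in either direction. Signal near background limits the size of the change of Kif11, Kif15, Kif18a and Kif5c, whose probes were not well above background on every array, and normexp brought Kif5a, Kif2c, Kif18b, Kif23, Kif4 and Kif21a nearer to 0 as well.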
